A study of Mus musculus with 19 samples.

Results

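Described here were 8 genes of cholesterol synthesis, namely Hmgcs1, Mvk, Mvd, Idi1, Fdps, Fdft1, Sqle and Lss, taken by name from the 24689 genes with a value in the tongue epithelium of 19 mice. All 8 passed the filter on low values, as did 22745 genes in all. Messenger RNA of whole tongue epithelium was sequenced 15 days after induction of transgenes in mice 8 to 16 weeks old. The groups were N (control, n = 5), E (HPV16 E6-E7, n = 5), Y (the constitutively active YAP allele tetON_YAP1S127A, n = 3) and EY (both, n = 6). E mice carried Krt14-CreERT, LSL-rtTA and tetON_E6-E7; Y mice carried the same regulatory pair with tetON_YAP1S127A, and EY mice all of these. Of the N mice, 3 carried Krt14-CreERT and LSL-rtTA, mouse 4 carried LSL-rtTA without the Cre, and mouse 5 carried the Cre and both tetON transgenes but no rtTA. Tamoxifen was injected into the tongue and doxycycline given in the chow, so that the transgenes were switched on from the Krt14 promoter's cells, the basal layer, while the RNA came from the whole epithelium. Recovered from the steps of the values, 8269674 (Y mouse 1) to 11007304 (EY mouse 2) reads per mouse were assigned to genes. Levels are given in TPM, a share of all reads corrected for transcript length, so that they can be set side by side between genes.

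Cholesterol is built from acetyl-CoA. The early enzymes make mevalonate and turn it into isopentenyl diphosphate, the isoprenoid unit; these units are joined into farnesyl diphosphate, which also feeds protein prenylation, ubiquinone and dolichol; farnesyl units are then paired into squalene, and squalene is oxidised and folded into lanosterol, the first sterol. The genes are known to be switched on together by the SREBP transcription factors when sterols in the endoplasmic reticulum run low. In stratified epithelium cholesterol serves the membranes of dividing basal cells and, with ceramides and fatty acids, the lipid barrier of the upper layers.

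Promoters are shown as the regulatory sequence next to the genes. RefSeq (GRCm38.p6) gave a promoter sequence for 5 of the 8 genes: Hmgcs1, Mvk, Mvd, Idi1 and Lss. Each window held 250 bases before the start and 50 after. Letters searched on both strands were TCACNCCAC (a sterol regulatory element, the kind of site SREBP is known to bind), CCAAT (the NF-Y box), GGGCGG (the GC box of Sp1) and GGAATG (bound by TEAD factors, the DNA-binding partners of YAP); none of these patterns contains another. Capitals mark the matches in the following 4, chosen to show 3 genes that rose in Y and Mvk, which did not pass the test.
Hmgcs1, chr13:119690101-119690400, plus strand: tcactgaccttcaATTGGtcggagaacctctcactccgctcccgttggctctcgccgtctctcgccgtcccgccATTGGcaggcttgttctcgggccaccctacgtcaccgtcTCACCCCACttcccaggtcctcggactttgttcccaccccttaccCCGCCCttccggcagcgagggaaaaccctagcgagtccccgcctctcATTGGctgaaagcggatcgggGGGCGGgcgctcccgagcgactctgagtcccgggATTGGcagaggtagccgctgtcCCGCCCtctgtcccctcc
Mvk, chr5:114444019-114444318, plus strand: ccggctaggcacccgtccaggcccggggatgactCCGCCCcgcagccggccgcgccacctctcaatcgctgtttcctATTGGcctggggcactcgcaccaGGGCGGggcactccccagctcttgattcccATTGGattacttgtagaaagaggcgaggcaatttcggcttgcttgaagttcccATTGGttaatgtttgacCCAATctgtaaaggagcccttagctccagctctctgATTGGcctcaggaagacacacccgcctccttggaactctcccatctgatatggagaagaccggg
Mvd, chr8:122443373-122443672, minus strand: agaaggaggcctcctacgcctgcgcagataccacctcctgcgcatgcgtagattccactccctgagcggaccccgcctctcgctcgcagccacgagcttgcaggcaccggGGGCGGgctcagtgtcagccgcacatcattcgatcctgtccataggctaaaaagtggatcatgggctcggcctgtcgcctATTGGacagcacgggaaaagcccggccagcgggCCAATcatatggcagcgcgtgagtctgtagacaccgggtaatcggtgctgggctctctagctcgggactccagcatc
Idi1, chr13:8885356-8885655, plus strand: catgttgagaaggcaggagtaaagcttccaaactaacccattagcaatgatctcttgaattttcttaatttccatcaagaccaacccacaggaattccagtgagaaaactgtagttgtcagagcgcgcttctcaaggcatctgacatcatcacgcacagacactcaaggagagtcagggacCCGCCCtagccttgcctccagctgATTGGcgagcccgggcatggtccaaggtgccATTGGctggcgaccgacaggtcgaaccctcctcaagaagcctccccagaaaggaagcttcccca
The Hmgcs1 window held 1 match to the sterol element, which 1.24% of 32851 promoters of 300 bases held, and the other 4 windows held 0. CCAAT in either direction was present in all 5 windows, with 4 matches in Hmgcs1, 5 in Mvk, 2 in Mvd, 2 in Idi1 and 1 in Lss, against 37.4% of all promoters with any. The GC box was also present in all 5, against 35.7% of all promoters, and GGAATG was in 0 of the 5, against 14.7%. A match is a description of the letters and not a sign of binding.

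The tissue markers were those of tongue epithelium: Krt13, a keratin of the suprabasal layers, was at a mean of 71112 TPM in N, and Krt14, of the basal layer, at 6048 TPM. Endogenous Yap1 had a mean of 8.34 ± 1.10 TPM (SD, n = 5) among N mice and of 8.57 ± 1.69 TPM (n = 3) among Y mice, so the mouse gene's row did not separate the groups, and the transcripts of the transgenes were not analysed here. Amotl2, a known target of YAP chosen after its values were seen, was at 13.2 to 19.3 TPM in N, 10.2 to 17.0 TPM in E, 45.0 to 67.0 TPM in Y and 50.5 to 75.1 TPM in EY. The groups also differed over the whole table: the median log2 fold change against N over all genes came to 0.07 for E, 0.13 for Y and 0.33 for EY. Median-of-ratios scaling moved these medians by -0.09, -0.17 and -0.32 in turn, and values so scaled are given beside the deposited ones. Fewer cells of a type and less RNA per cell cannot be told apart in such bulk samples.

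Hmgcs1 codes for the synthase that makes HMG-CoA, early in the mevalonate part. It was at 97.1, 122, 131, 113 and 106 TPM in the 5 N mice and at 77.4, 99.7, 101, 131 and 113 TPM in the 5 E mice. In Y it was at 219, 287 and 265 TPM. In EY the lowest, median and highest of 6 mice were 168, 190 and 226 TPM. Every Y and EY mouse was above every N and E mouse, and the Y and EY ranges met only at their edges.

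Mvk codes for mevalonate kinase. As deposited, it had the smallest fold changes of the 8 in Y and EY against N or E. In EY against Y its log2 fold change was the largest of the 8 in size, at -0.51. Its level was 9.25 to 13.8 TPM in N, 8.65 to 13.3 TPM in E, 14.3 to 20.3 TPM in Y and 9.24 to 15.4 TPM in EY. The 3 Y mice lay just above the N range, and EY covered the whole of it. Mvd, which decarboxylates the diphosphate of mevalonate to give isopentenyl diphosphate, was at 8.30, 9.66, 11.3, 6.81 and 8.30 TPM in N and at 8.48, 8.57, 8.53, 8.17 and 6.77 TPM in E. In Y it was at 23.0, 17.5 and 25.8 TPM, and in EY the lowest, median and highest were 12.9, 16.9 and 29.7 TPM. All 9 Y and EY mice were above all 10 N and E mice, and EY mouse 1 stood apart from the other EY mice at the upper end.

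Idi1 codes for the isomerase that converts isopentenyl to dimethylallyl diphosphate so that chain growth can begin. It had the largest fold change of the 8 in Y and in EY, each against N. It was at 41.1, 43.9, 52.4, 48.8 and 43.3 TPM in N and at 33.6, 42.5, 39.8, 45.8 and 44.0 TPM in E. In Y it was at 128, 166 and 139 TPM, and in EY the lowest, median and highest were 127, 163 and 208 TPM. The lowest EY mouse stood far above the highest N mouse, and Y and EY overlapped. Fdps, the synthase that joins isoprenoid units into farnesyl diphosphate, had the lowest level of the 8, at 3.74, 2.17, 3.44, 2.12 and 2.65 TPM in N and 3.08, 2.01, 3.07, 2.56 and 3.60 TPM in E. It was at 8.10, 9.86 and 7.57 TPM in Y, and at 4.86, 5.92 and 7.60 TPM as the lowest, median and highest in EY. Its read counts were small, from 26 to 130 per mouse, so single values of Fdps carry more counting error than those of Hmgcs1, which had 2526 to 8091 reads.

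Fdft1, squalene synthase, and Lss, which folds oxidosqualene into lanosterol, moved less. Fdft1 was at 17.5 to 27.1 TPM in N, 17.2 to 25.4 TPM in E, 35.6 to 42.9 TPM in Y and 27.2 to 32.8 TPM in EY. As deposited, it was the member in which Y and EY did not overlap. Lss was at 15.8 to 24.0 TPM in N, 13.9 to 17.5 TPM in E, 28.4 to 39.5 TPM in Y and 23.2 to 32.2 TPM in EY, so that EY and N overlapped. Sqle, squalene epoxidase, which carries out the first oxygen-requiring step, was at 30.1, 24.0, 33.3, 22.3 and 26.4 TPM in N and 23.5, 30.1, 37.2, 23.3 and 29.3 TPM in E. It was at 77.3, 63.9 and 66.0 TPM in Y, and the lowest, median and highest in EY were 58.6, 67.4 and 78.5 TPM. Sqle levels in Y and EY covered the same range, far from N and E.

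**Figure D1:**
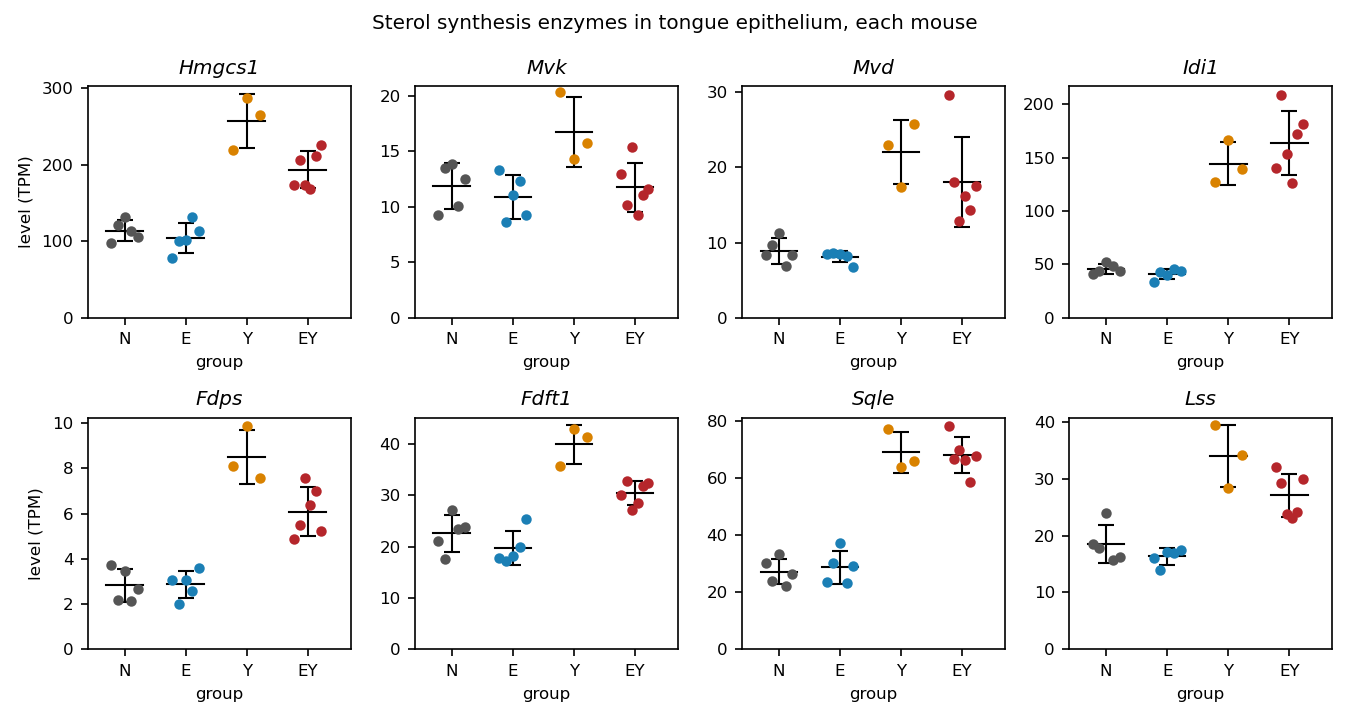
Level in TPM (linear axis from 0) of each of the 8 genes in every mouse of the groups N (5 mice), E (5), Y (3) and EY (6); points are mice, the long line is the mean and the bar ± 1 SD. N and E overlap for all 8 genes, and Y lies above N for all 8.

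In Y against N, the comparison that asks what active YAP does by itself, 5 of the 8 genes rose and 0 fell, while 3.47% of all genes tested rose by the same rule (adjusted p below 0.01 and a log2 fold change above 1). Idi1 rose by 1.65 on the log2 scale (SE 0.15, limma adjusted p = 2.2e-06). Fdps rose by 1.59 (SE 0.22, adjusted p = 0.00011) and Sqle by 1.35 (SE 0.15, adjusted p = 2.1e-05). Earlier in the pathway, Mvd rose by 1.31 (SE 0.22, adjusted p = 0.00059) and Hmgcs1 by 1.17 (SE 0.15, adjusted p = 7.1e-05). Lss, with a log2 fold change of 0.88, and Fdft1, with 0.83, were higher at adjusted p = 0.00062 and 0.00054 but under the fold limit. Without that limit 7 of 8 were higher, against 7.17% of all genes. Mvk had a log2 fold change of 0.50 (95% confidence interval 0.10 to 0.90, adjusted p = 0.082). All 8 ranges lay apart from those of N, each of the 3 Y mice above all 5 N mice, as they did for 15.5% of all genes, and after scaling 7 did, all but Mvk, against 10.5%. The median log2 fold change of the 8 was 1.24, beside 0.13 over all genes, and after scaling 1.04 beside -0.03. Scaled, 4 genes passed the rule, with Hmgcs1 at 0.98, and 6 had an adjusted p below 0.01, no longer Fdft1 (0.63, adjusted p = 0.014), and the calls over all genes went from 790 higher and 252 lower to 524 higher and 392 lower. Without Y mouse 2, Lss also passed, at 1.00. Fold changes are on the log2(TPM + 0.1) scale, which understates that of Fdps most.

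In EY against N, where both oncogenic transgenes were on, 3 of 8 genes rose, against 12.6% of all genes. These were Idi1, by 1.82 (SE 0.12, adjusted p = 5.2e-09), Sqle, by 1.33 (SE 0.13, adjusted p = 2.4e-07), and Fdps, by 1.10 (SE 0.18, adjusted p = 9e-05). Mvd at 0.99, Hmgcs1 at 0.76, Lss at 0.55 and Fdft1 at 0.44 were higher at adjusted p of 0.00026, 9.7e-05, 0.0014 and 0.0045 and did not reach the fold limit. With no fold limit 7 of 8 were higher, against 23.9% of all genes. Mvk had a log2 fold change of -0.01 (95% confidence interval -0.34 to 0.32), and of -0.39 when scaled (-0.70 to -0.07, adjusted p = 0.052). In 6 of 8 genes the EY and N mice did not overlap, the exceptions being Mvk and Lss, and every EY mouse was above every N mouse for 20.9% of all genes. Scaled, 4 did not overlap, Mvd and Fdft1 being lost, against 11.9% of all genes. The median log2 fold change of the 8 was 0.87, beside 0.33 over all genes, and 0.50 beside 0.01 after scaling. Scaling mattered more here than in Y: over all genes 2858 were called higher and 1299 lower as deposited, and 1542 higher and 1971 lower once scaled. Of the 8, Idi1 alone then passed the rule (1.44), while Sqle at 0.95, Fdps at 0.73 and Mvd at 0.61 kept an adjusted p below 0.01. Hmgcs1 at 0.38, Lss at 0.18 and Fdft1 at 0.07 no longer had adjusted p below 0.01 (0.013, 0.23 and 0.74). Fdps was also lost from the call with the 3 N mice that carried both regulatory transgenes (0.96), with a pseudocount of 1 TPM (0.90) and with voom on the recovered reads (0.95). Mvd, so near the limit, passed it without N mouse 2 (1.02), N mouse 3 (1.08), EY mouse 3 (1.07), EY mouse 4 (1.01) or EY mouse 5 (1.04).

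In E against N, the effect of E6-E7 without active YAP, 0 of 8 genes were called by limma and 0 by voom, against 1.20% of all genes in either direction with limma, and 0 of 8 had an unadjusted p below 0.05 with either, against 14.8% of all genes with limma. Log2 fold changes ran from -0.19 for Fdft1 to 0.07 for Sqle, with a median of -0.13. Scaled, the median was -0.24, and the small positive values of Sqle and Fdps (0.07 and 0.03) became -0.04 and -0.08. Scaled, 3 of the 8 had an unadjusted p below 0.05, against 14.7% of all genes, with 95% confidence intervals below 0, namely Fdft1 (-0.60 to -0.02), Lss (-0.52 to -0.03) and Idi1 (-0.54 to -0.0032), at adjusted p of 0.30, 0.26 and 0.33. As deposited, the 95% confidence interval of Idi1 was -0.43 to 0.11 and that of Hmgcs1 was -0.41 to 0.14, so that increases of the size seen in Y lay outside both. The ranges of E and N overlapped for all 8 genes, while 4.57% of all genes had ranges apart in either direction, and scaled the count was again 0, against 4.67%.

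Against E as the reference, 7 of 8 genes rose in Y, all but Mvk, while 1.67% of all genes did. The increase ran from 1.03 for Fdft1 (SE 0.14, adjusted p = 0.0002) to 1.81 for Idi1 (SE 0.15, adjusted p = 2.3e-06). Without the fold limit the count was again 7, against 3.30% of all genes. Mvk had a log2 fold change of 0.62 (adjusted p = 0.046). Fdft1 at 1.03 and Lss at 1.05 stood close to the limit, and after scaling (0.94 and 0.96) 5 genes passed, as with voom (0.96 and 0.98). Over all genes the calls were 380 higher and 183 lower as deposited, and 305 higher and 238 lower scaled. Fdft1 missed the limit without E mouse 1 (0.99), E mouse 2 (0.98), Y mouse 2 (0.98) or Y mouse 3 (1.00), and Lss missed it without E mouse 2 (0.99) or Y mouse 1 (0.93). In a fit of E and Y mice alone, Hmgcs1 and Fdft1 had an adjusted p of 0.010 and 0.011.

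In EY against E, which asks what active YAP adds to E6-E7, 4 of 8 genes rose, against 7.82% of all genes. Idi1 rose by 1.98 (SE 0.12, adjusted p = 6.6e-09) and Sqle by 1.26 (SE 0.13, adjusted p = 8.7e-07). Mvd rose by 1.10 (SE 0.18, adjusted p = 0.00012) and Fdps by 1.07 (SE 0.18, adjusted p = 0.00016). Without the fold limit 7 of 8 were higher, against 18.1% of all genes, and all but Mvk had every EY mouse above every E mouse, against 17.6% of all genes. Scaled, 6 did, Fdft1 being lost, against 10.8%. Scaled, Idi1 passed the rule (1.71) and Sqle just missed it (1.00), while 6 of 8 kept an adjusted p below 0.01; over all genes the calls went from 1779 higher and 1135 lower to 1001 higher and 1573 lower. The call of Mvd rested on EY mouse 1, without which it was 0.95, and that of Fdps on E mouse 2, without which it was 0.96. With voom Mvd was at 0.97 and Fdps at 0.93, and Fdps was at 0.88 with a pseudocount of 1 TPM and at 0.95 with the muscle marker level as a covariate.

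In EY against Y, the effect of adding E6-E7 to active YAP, 0 of 8 genes passed the rule with limma and 0 with voom, against 2.00% of all genes in either direction with limma. Of the 8, 5 had an unadjusted p below 0.05 with limma and 6 with voom, against 23.9% and 22.9% of all genes, so the lack of calls does not show equal levels. Idi1 had a log2 fold change of 0.17 (95% confidence interval -0.13 to 0.47). Sqle had -0.02 (-0.34 to 0.29). The other 6 ran from -0.51 for Mvk (adjusted p = 0.094) to -0.32 for Mvd (adjusted p = 0.38), with Fdft1 at -0.39 (adjusted p = 0.081) and Hmgcs1 at -0.41 (adjusted p = 0.095). As deposited, the median over the 8 was -0.36, beside 0.18 over all genes, and scaled it was -0.54 beside 0.02. The lowest scaled values were those of Mvk at -0.69 and Fdps at -0.66, while Idi1 turned from 0.17 to -0.0075. Over all genes 243 were called higher and 211 lower as deposited, and 123 higher and 283 lower scaled.

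Mean levels as deposited ordered as E, N, EY and Y from low to high for Hmgcs1, Mvd, Fdft1 and Lss. In this order the step from N to EY had an adjusted p below 0.01 as deposited, and only that of Mvd kept it when scaled. The steps from E to N and from EY to Y did not reach it, yet the deposited 95% confidence intervals of EY against Y lay below 0 for Hmgcs1 (-0.72 to -0.10), Fdft1 (-0.67 to -0.11) and Lss (-0.63 to -0.02). As deposited, Fdft1 alone had Y and EY mice that did not overlap, as did 14.5% of all genes in either direction. Scaled, so did 5 of the 8, namely Hmgcs1, Mvk, Fdps, Fdft1 and Lss, against 12.8% of all genes. For Fdps and Sqle the deposited order was N, E, EY and Y, with an adjusted p below 0.01 for the step from E to EY, and for Idi1 it was E, N, Y and EY, with such a step from N to Y and an adjusted p of 0.51 for Y and EY. Scaled, these 3 genes took the order E, N, EY and Y of the others, and in each the step from N to EY had an adjusted p below 0.01. For Mvk the order was E, EY, N and Y as deposited and EY, E, N and Y when scaled. No step of it had an adjusted p below 0.01, the lowest as deposited being 0.082 for N and Y, whose mice overlapped only when scaled.

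The interaction term, EY less E less Y plus N, tests whether the transgenes together departed from the sum of each on the log2 scale. It was called for 0 of 8 genes by limma and 0 by voom, against 0.176% of all genes with limma, and 0 of 8 had an unadjusted p below 0.05 with either, against 13.5% of all genes with limma. The median estimate over the 8 was -0.20, beside 0.08 over all genes, and -0.26 beside 0.02 when scaled. Estimates ran from -0.52 for Fdps (95% confidence interval -1.12 to 0.08) to 0.33 for Idi1 (-0.07 to 0.73), the only positive one. These intervals are wide, with 3 Y mice, and do not show that the effects add up exactly. On simulated data the fit also missed more changed genes for this term than for EY or Y against N, so the count of 0 is weak evidence that they add up.

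**Figure D2:**
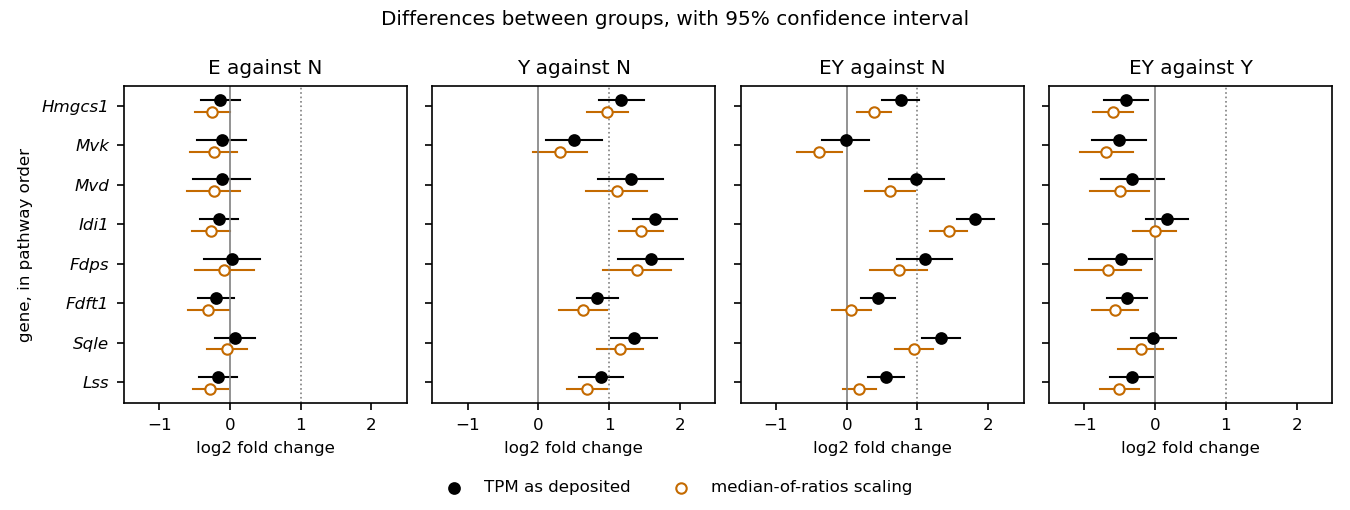
Log2 fold change (horizontal axis) of each of the 8 genes in pathway order for 4 comparisons, from TPM as deposited (filled) and after median-of-ratios scaling (open); lines are 95% confidence intervals and the dotted line marks the fold limit of 1. In E against N every deposited interval includes 0, and in Y against N 5 deposited values lie beyond the limit.

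The rest of the route to cholesterol was read from lists of further enzymes. Of the 2 other enzymes before lanosterol, Acat2 rose in both YAP groups, by 1.84 in Y (SE 0.20, adjusted p = 1.1e-05) and 2.25 in EY (SE 0.16, adjusted p = 1.2e-08), from 9.33 TPM in N to 33.6 and 45.3 TPM. Acat2 is the cytosolic thiolase that feeds the synthase coded by Hmgcs1. Pmvk, the kinase between Mvk and Mvd, had log2 fold changes of 0.67 and 0.36 in Y and EY and passed in neither; scaled, that of EY turned to -0.02. In E against N 0 of 2 were called by limma and 0 by voom, and 1, Acat2 at 0.57, had an unadjusted p below 0.05. For this and the following lists, 14.8% of all genes had such a p in E, 28.9% in Y and 48.6% in EY, each against N.

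Of the 11 genes for the steps from lanosterol to cholesterol, 3 rose and 0 fell in Y, and 3 rose and 0 fell in EY, each against N. Of all genes 3.47% rose and 1.11% fell in Y, and 12.6% rose and 5.71% fell in EY, and these are the shares to set beside the counts of this and the following lists. The genes were Nsdhl, Cyp51 and Lbr in both. Nsdhl, a decarboxylating dehydrogenase of sterols, rose by 1.54 in Y (SE 0.25) and 1.19 in EY (SE 0.21). Cyp51, the lanosterol demethylase, rose by 1.17 in Y (SE 0.18) and 1.05 in EY (SE 0.15). Lbr, a sterol reductase that also anchors chromatin at the nuclear envelope, rose by 1.03 in Y (SE 0.18) and 1.99 in EY (SE 0.15). Lbr was also higher in E, by 0.87, at adjusted p = 0.0024 and under the fold limit. With no fold limit 7 of 11 were higher in Y and 8 of 11 in EY, against 7.17% and 23.9% of all genes. The median of the list was 0.91 in Y and 0.83 in EY, and 0.71 and 0.45 after scaling, when 1 gene still passed as higher in each, Nsdhl in Y at 1.35 and Lbr in EY at 1.62.

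Hsd17b7, Sc5d, Erg28 and Msmo1 were higher in both groups at adjusted p below 0.01 and under the fold limit, at 0.94, 0.92, 0.90 and 0.88 in Y and 0.90, 0.79, 0.83 and 0.75 in EY. Scaled, Msmo1 lost that p in Y, and all but Hsd17b7 lost it in EY. Tm7sf2, Ebp and Dhcr7 differed less or the other way. Tm7sf2, whose protein carries out the same reduction as Lbr, had log2 fold changes of 0.08 in Y and -0.66 in EY (limma adjusted p = 0.9 and 0.044), and scaled it was at -0.12 in Y and called lower in EY, at -1.03 (adjusted p = 0.0026). Ebp, a sterol isomerase, was at 0.25 in Y and -0.11 in EY, and at -0.49 in EY when scaled (adjusted p = 0.0069). Dhcr7, which carries out a last reduction to cholesterol, was at 0.48 in Y and 0.11 in EY, the latter turning to -0.26 when scaled. In E against N, 0 of 11 were called by limma and 0 by voom, and 2 had an unadjusted p below 0.05, Lbr with a higher and Msmo1 with a lower level.

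Farnesyl diphosphate and its precursors also serve other products. Of 9 genes for these, 2 rose in EY, and 0 were called in Y by limma and 0 by voom, with 2 at an unadjusted p below 0.05. Nus1, a subunit of the transferase that makes dolichol chains, rose by 1.38 in EY (SE 0.12, adjusted p = 1.2e-07) and was at 1.00 in Y, just under the limit (adjusted p = 0.00024). Pdss1, which makes the ubiquinone side chain, rose by 1.40 in EY (SE 0.15, adjusted p = 8.5e-07) and was at 0.81 in Y (adjusted p = 0.0051). Fnta, Fntb and Pggt1b, which code for subunits of the enzymes that attach isoprenoids to proteins, did not pass. The median of the list was 0.09 in Y and 0.29 in EY, near that over all genes (0.13 and 0.33), and -0.02 and -0.03 when scaled. In E 0 of 9 were called by limma or voom, and 0 had an unadjusted p below 0.05.

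Among 9 genes that control sterol synthesis, 0 passed the rule with limma and 0 with voom in each of the 3 comparisons against N, and at an unadjusted p below 0.05 there were 4 in Y, 2 in EY and 1 in E, against 28.9%, 48.6% and 14.8% of all genes. The list's median was 0.15 in Y and 0.21 in EY, and -0.04 and -0.16 when scaled. Srebf2, which codes for the SREBP that chiefly drives sterol genes, was higher under the fold limit, with a log2 fold change of 0.77 in Y (adjusted p = 0.006) and 0.86 in EY (adjusted p = 0.00011), and of 0.57 and 0.48 when scaled. Its mean level was 9.54 TPM in N, 9.65 TPM in E, 16.3 TPM in Y and 17.1 TPM in EY. Srebf1, whose product drives mainly fatty acid genes, had 0.22 in Y and 0.21 in EY, and 0.02 and -0.16 when scaled. Insig1, which retains the SREBP escort Scap in the endoplasmic reticulum and is itself a sterol-responsive gene, had 0.59 in Y (adjusted p = 0.051) and 0.28 in EY (adjusted p = 0.19), which turned to -0.10 when scaled. The proteins of these factors are regulated by cleavage, which mRNA levels do not show.

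Of 11 genes for the uptake, transport, storage and efflux of cholesterol, 3 rose and 1 fell in Y, and 3 rose and 2 fell in EY, against N. Lrp8, a lipoprotein receptor, rose by 1.76 in Y (SE 0.24) and 2.27 in EY (SE 0.20), from a mean of 0.747 TPM in N to 2.73 and 3.94 TPM. Scarb1, the receptor of high-density lipoprotein, rose by 1.32 in Y (SE 0.19) and 1.98 in EY (SE 0.16). Its mean level was low, at 0.560 TPM in N, 1.54 TPM in Y and 2.49 TPM in EY. Stard4, a carrier of cholesterol between membranes, rose by 1.10 in Y (SE 0.20) and 1.40 in EY (SE 0.16). Abca1, the pump that exports cholesterol, fell by 1.42 in Y (SE 0.34) and 1.32 in EY (SE 0.28) from a low level of 1.41 TPM in N. Mylip, a ubiquitin ligase that marks lipoprotein receptors for breakdown, fell by 1.41 in EY (SE 0.15, adjusted p = 9.6e-07) and had a log2 fold change of -0.68 in Y (adjusted p = 0.018). Vldlr, Npc1 and Abcg1 did not pass in either, and the median of the list was 0.12 in Y and -0.0033 in EY, or -0.05 and -0.37 when scaled. Stard4 in Y missed the limit when scaled, at 0.90. In E 0 of 11 were called by limma or voom, and 3 had an unadjusted p below 0.05, namely Lrp8 at 0.91, Abcg1 at 0.87 and Scarb1 at 0.70.

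Of 10 genes for fatty acid synthesis, 3 rose in each YAP group, namely Scd1, Scd2 and Fads2, which code for desaturases. Scd1 rose by 1.72 in Y (SE 0.23) and 2.46 in EY (SE 0.19), Scd2 by 1.77 in Y (SE 0.22) and 1.55 in EY (SE 0.18), and Fads2 by 1.42 in Y (SE 0.21) and 2.04 in EY (SE 0.18). Me1, malic enzyme, a source of NADPH, fell by 1.80 in EY (SE 0.20, adjusted p = 1.1e-06) and had a log2 fold change of -0.95 in Y (adjusted p = 0.011), where it was called once scaled, at -1.15 (adjusted p = 0.0049). Fasn, fatty acid synthase, had 0.51 in Y and 0.63 in EY. The median of the list was 0.55 in Y and 0.74 in EY, and 0.36 and 0.37 when scaled. In E 0 of 10 were called by limma or voom, and 2, Elovl6 at -0.70 and Me1 at -0.53, had an unadjusted p below 0.05.

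**Figure D3:**
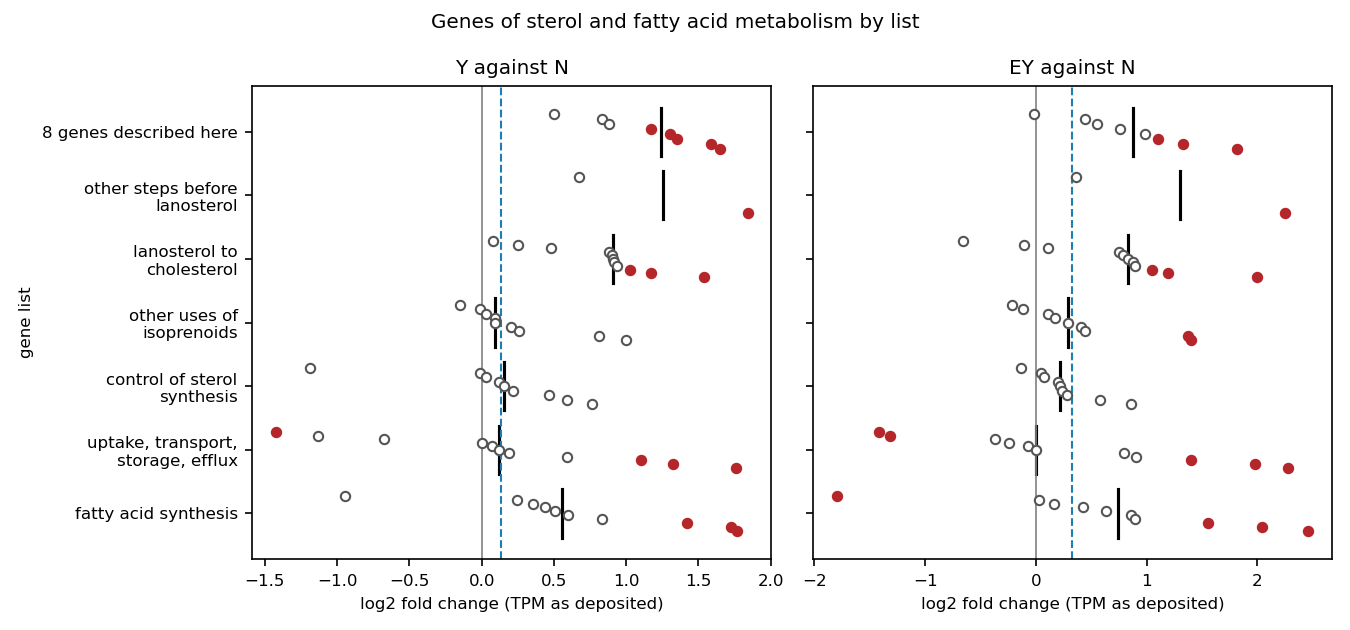
Log2 fold change from deposited TPM (horizontal axis) of every gene of the 7 lists (rows), in Y against N and in EY against N; filled red points passed the rule, open points did not, black bars are list medians and the blue dashed line is the median over all genes tested. The horizontal axes differ between the panels. The 8 genes have medians of 1.24 and 0.87, beside 0.13 and 0.33 over all genes.

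Markers of cell types differed between the same groups. The summed level of 5 cycling markers was 66.5 ± 11.3 TPM (SD, n = 5) in N, 237 ± 36.7 TPM (n = 5) in E, 283 ± 37.8 TPM (n = 3) in Y and 586 ± 53.1 TPM (n = 6) in EY. Mki67 was the most abundant of them in N and E, and Ccnb1 in Y and EY. All 5 rose in E, in Y and in EY. Y against E gave 0 of 5 with limma and 0 with voom, with 1 at an unadjusted p below 0.05, against 23.3% of all genes.

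Of the layers, 5 basal markers summed to 9191 ± 2225 TPM in N, 10957 ± 2385 TPM in E, 21054 ± 8055 TPM in Y and 22789 ± 6249 TPM in EY, and Krt14 was the most abundant in each. Krt14 rose in EY, by 1.43, and carries most of the sum. Krt5 at 0.98 and Itga6 at 0.94 were also higher in EY against N, under the fold limit (limma adjusted p = 0.00067 and 0.0015). Scaled, they were at 0.60 and 0.57 (limma adjusted p = 0.017 and 0.034). Col17a1 went the other way, at 62.9 TPM in N, 74.2 TPM in E, 53.8 TPM in Y and 36.7 TPM in EY, and fell in EY against E, by 1.01 (adjusted p = 0.0002). For EY against N it was at -0.73 (adjusted p = 0.0026) and was called when scaled, at -1.11. Trp63 had 0.02 in EY against N (adjusted p = 0.93). In Y 0 of 5 were called by limma and 1 by voom, and 3 had an unadjusted p below 0.05, against 28.9% of all genes. The 5 suprabasal markers summed to 114979 ± 26678 TPM in N, 104336 ± 24613 TPM in E, 74638 ± 24902 TPM in Y and 37080 ± 5191 TPM in EY, with Krt13 the most abundant. Krt13, Krt4 and Lor fell in EY, and in Y 0 of 5 were called by limma or voom, with 2 at an unadjusted p below 0.05.

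Other cell types were also checked. The 7 immune markers summed to 268 ± 282 TPM in N, 279 ± 174 TPM in E, 802 ± 209 TPM in Y and 720 ± 317 TPM in EY. Lyz2 was the most abundant in N and E, at 196 and 171 TPM, and S100a8 in Y and EY, at 496 and 381 TPM. S100a8 and S100a9, which keratinocytes are also known to express, rose in Y and in EY and made up most of the sums there. Lyz2 was at 20.4 TPM in Y, a log2 fold change of -2.74 against N (limma adjusted p = 0.069), and at 122 TPM in EY. Of the others, Cd68 was at 46.8, 66.0, 35.8 and 65.0 TPM and Csf3r at 1.12, 1.56, 0.80 and 2.89 TPM in N, E, Y and EY. The 7 skeletal muscle markers summed to 78.1 ± 89.2 TPM in N, 47.1 ± 46.9 TPM in E, 54.4 ± 72.1 TPM in Y and 310 ± 451 TPM in EY, with Acta1 the most abundant in each. EY mouse 3 alone had 1220 TPM, and in EY against N 0 of 7 were called by limma or voom, with 1 at an unadjusted p below 0.05, against 48.6% of all genes. In EY against E and in EY against Y both tools also called 0 of 7, with 6 and 4 at an unadjusted p below 0.05, against 43.6% and 23.9% of all genes. The 6 markers of fibroblasts and vessels summed to 121 ± 76.6 TPM in N, 68.3 ± 13.6 TPM in E, 29.4 ± 9.57 TPM in Y and 63.1 ± 35.7 TPM in EY. Dcn was the most abundant in N, E and Y and Col3a1 in EY, and Dcn fell in EY. In Y against N 0 of 6 were called by limma and 1 by voom, with 1 at an unadjusted p below 0.05 with limma. Dcn had a mean of 61.4 TPM in N and 18.9 TPM in Y. The sum hides that others had their highest mean in EY, with Pdgfra at 0.457 TPM in N and 1.01 TPM in EY, and Pecam1 at 0.131 and 0.422 TPM, at adjusted p of 0.20 and 0.13.

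Of 4 adipocyte markers Cidec had a value, listed at 0 in each N and E mouse and at most at 0.117 TPM in Y and 0.355 TPM in EY. Of 7 markers of sebaceous or salivary gland 6 had values, summing to 39.4 ± 37.4 TPM in N, 15.9 ± 1.12 TPM in E, 13.6 ± 3.08 TPM in Y and 13.5 ± 3.08 TPM in EY. Dcpp1 was the most abundant in N and Mgst1 in the other groups, where the salivary genes Dcpp1 and Bpifa2 were listed at 0 in each mouse. Both were also at 0 in 3 of the 5 N mice, and N mice 2 and 3, with sums of 58.3 and 96.9 TPM against 13.2 to 14.6 TPM in the other 3, made the N sum. Adipoq, Plin1, Lep and Awat1 were not analysed here. The part of cycling, layer, immune, fibroblast and gland markers in the differences of the sterol genes was not tested. With the muscle level as a covariate 4 of the 8 were called in EY against N, 5 in Y against N and 3 in EY against E. In the same fit 2758, 745 and 1699 of 22745 genes were called higher in these comparisons, in turn.

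**Figure D4:**
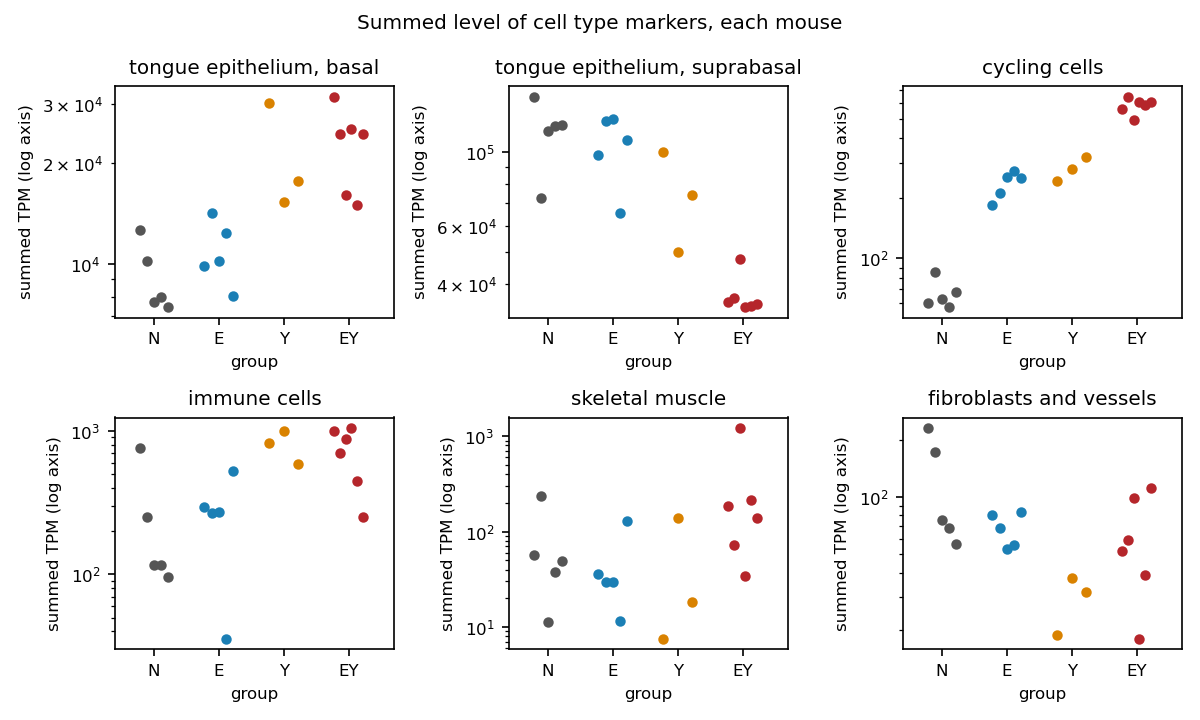
Summed TPM (log axis) of 6 marker lists in every mouse of N, E, Y and EY; points are mice. Cycling markers are higher in E, Y and EY than in N, the basal sum, mostly Krt14, is higher in Y and EY, and EY mouse 3 stands out for skeletal muscle at 1220 TPM.

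Some of the 8 genes share sequence with other transcripts of the GENCODE M21 annotation, and the strand used in counting is not given in the sources used here, so their values are uncertain to that extent. Fdps matched 7 other genes, among them the processed pseudogene Gm3571 (98.9% identity over 1062 bases) and the protein-coding Gm43738 (100% over 929 bases). Gm3571 had a mean of 3.51 TPM in N and 7.14 TPM in Y (log2 fold change 1.04, adjusted p = 0.25). Idi1 matched 4, of which the pseudogene Gm13502 was identical over 684 bases and Gm48574 matched 323 bases on the opposite strand. Hmgcs1 shares 462 bases with the antisense gene Gm48342. This gene had means of 105 ± 8.62 TPM in N, 91.9 ± 18.3 TPM in E, 255 ± 22.5 TPM in Y and 181 ± 26.2 TPM in EY, nearly the levels of Hmgcs1. Lss shares 152 bases with the antisense gene 4930483K19Rik, whose level was 2.97 ± 0.69 TPM in N and 6.11 ± 1.33 TPM in Y. Fdft1 matched the pseudogene Gm6781 (97.4% over 1249 bases) and, over 774 bases on the opposite strand, Ctsb. Mvk, Mvd and Sqle had 0 such matches. Mmab, which is known to lie head to head with Mvk, had 3.68 ± 0.53 TPM in N and 6.40 ± 0.52 TPM in Y (log2 fold change 0.79, adjusted p = 0.015).

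Within groups, the mice that were high for the 8 genes together were compared with 6159 other genes of at least 10 TPM on average, after group means were removed. The closest over 19 mice were Cdv3 (Pearson r = 0.77), Mblac1 (0.74), Dbi (0.74), Mark2 (0.73) and Psmc3ip (0.71), which are the highest of many and are given as a description. Dbi codes for an acyl-CoA-binding protein, and across groups it had a log2 fold change of 0.08 in Y against N and -0.25 in EY against N, whereas Cdv3 had 0.95 in Y and rose by 1.59 in EY. Each member's own deviation had an r with the mean of the other 7 between -0.02 for Fdps and 0.76 for Lss. The mouse-to-mouse variation within groups was thus little shared for most of the 8.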

How the data were processed

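Messenger RNA libraries of tongue epithelium from 19 mice were sequenced by the authors, who aligned reads with STAR 2.7.9 to GRCm39. They counted reads with HTSeq 0.13.5 and deposited TPM. The paper also describes TPM from Kallisto on human transcripts ahead of its set tests. Which route gave the deposited values is not stated, but they include mouse gene rows such as Gm48342, which human transcripts would not give. Samples were grouped by their labels. From the TPM values log2(TPM + 0.1) was taken, the filter kept 22745 of 24689 genes (0.1 TPM or more in 3 or more mice), and limma 3.58.1 (R 4.3.3; lmFit, eBayes with trend) was fitted with a mean per group, with Benjamini-Hochberg adjustment over all genes tested and a gene was called where adjusted p was under 0.01 and log2 fold change beyond 1 in either direction. The fit was tested on simulated data; it first failed the set pass mark for the interaction, and the mark was then limited to genes of higher level, which it passed. Whole reads were recovered from the steps of the values (within 0.02 read) for 24680 genes, giving 8269674 to 11007304 reads per mouse, and were used for voom. Other pseudocounts, filters, scalings, mice, a replicate block, a muscle covariate, robust eBayes and thresholds were tried. The 8 genes and all lists were chosen with earlier results of these data known; every gene of a list could be named, and the 5 genes most like the 8 were ranked by r among those with at least 10 TPM. Yap1, Amotl2, Mmab and the genes sharing sequence were chosen after their values were seen. Certain genes of the pathway are not reported here. Mice are separate animals, with no batch in the labels.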

Additional observations from a re-analysis of the deposited data

Results flagged for a closer look

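In 24 groups of 5 or 6 mice for the 8 genes, and in 22 with values above 0 for the marker sums, the gap of the most extreme mouse to its nearest neighbour was compared with the range of the group, a measure that chance passes in about 1 of 20 groups. It was passed by 2 of 24 for the sterol genes and 5 of 22 for the markers.

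Mvd was at 29.7 TPM in EY mouse 1, with the other 5 EY mice at 12.9 to 18.1 TPM. It was at 6.77 TPM in E mouse 5, with the other 4 E mice at 8.17 to 8.57 TPM.

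Skeletal muscle markers summed to 1220 TPM in EY mouse 3, with the other 5 at 34.0 to 213 TPM, and to 235 TPM in N mouse 2 and 130 TPM in E mouse 5, where the other 4 mice of each group reached 57.5 and 35.7 TPM. Suprabasal markers summed to 47558 TPM in EY mouse 3 against 34110 to 36253 TPM in the other 5. Immune markers summed to 759 TPM in N mouse 1 against 96.1 to 252 TPM in the other 4. No explanation of these values was tested.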

How the results depend on the processing

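Called genes numbered 3 in EY against N, 5 in Y against N, 4 in EY against E, 7 in Y against E and 0 in E against N, EY against Y and the interaction. The 0 counts stayed at 0 in each alternative run, and no gene of the lists that was called in either fit changed direction. With median-of-ratios scaling and with quantile normalization the count was 1 in EY against N and 1 in EY against E, with voom on the recovered reads it was 2 in EY against E, and with no limit on the fold change it was 7 in both; the last follows from the looser rule, and the cause of the others was not tested. Leaving out 1 mouse at a time gave 3 to 4 in EY against N, 5 to 6 in Y against N, 3 to 4 in EY against E and 5 to 7 in Y against E.

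Of 776 values of the 8 genes under alternatives other than a left-out mouse, 723 kept direction and side of the threshold, 29 lost and 10 gained the call, and 14 changed sign without being called in either fit. Of 1064 with a mouse left out, these were 1036, 8, 6 and 14. For the other listed genes they were 4725, 61, 53 and 184 of 5023, and 6681, 30, 27 and 178 of 6916.

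Mouse numbers recur between groups. With them as a replicate block the counts were 3 in EY against N, 5 in Y against N, 4 in EY against E, 6 in Y against E, where Lss was at 0.99, and 0 in the others. Deviations of mice with the same number had a median r of 0.00765 over 24 pairs (-0.123 to 0.0734) and those of other pairs -0.00200 over 109, so pairing by number was not established.

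Over all genes, fits of the groups compared alone called 555 genes against 1042 in Y against N, 145 against 274 in E against N, 198 against 454 in EY against Y and 187 against 563 in Y against E. With the 3 N mice of both regulatory transgenes Y against N gave 656. An adjusted p below 0.05 gave 1599 in Y against N, 414 in E against N, 865 in EY against Y, 1016 in Y against E and 148 against 40 for the interaction, and voom gave 118 for the interaction. With no fold limit the counts were 7248 against 4157 in EY against N, 1935 in Y against N, 803 in EY against Y, 5746 against 2914 in EY against E and 986 in Y against E. Single mice moved these counts by over 1.5 times as follows: without Y mouse 1, EY against Y gave 200; without Y mouse 2, it gave 255 and Y against E 316; without Y mouse 3, it gave 262, Y against N 639 and Y against E 266; without EY mouse 3, the interaction gave 73. Quantile normalization gave 1632 higher and 1912 lower in EY against N. Fdps had the fewest reads of the members, at 26 to 130 a mouse. Whether the sequence it shares with other genes lowered these counts was not tested.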
